A study of Homo sapiens with 18 samples.

Results

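The RNA of 10 genes of the G1 phase of the cell cycle was followed through a 24 h treatment with CCS1477: the D cyclins CCND1, CCND2 and CCND3, the E cyclins CCNE1 and CCNE2, the kinases CDK4 and CDK6, and the CDK inhibitors CDKN1B (p27), CDKN1C (p57) and CDKN2C (p18). They were taken by name, 10 of the 20374 genes with a gene row in at least 1 of 3 expression tables. D cyclins bind CDK4 and CDK6 and start the phosphorylation of the retinoblastoma protein in G1, and E cyclins with CDK2 complete it, which frees E2F factors to switch on genes of DNA synthesis. CDKN2C holds CDK4 and CDK6 away from D cyclins, while CDKN1B and CDKN1C bind whole cyclin-CDK complexes. Copy number gains of CCND1 and CDK4 are known from lung cancers.

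RNA was sequenced from human lung cancer cell lines treated for 24 h with 5 µM CCS1477 or with its solvent DMSO. CCS1477 (inobrodib) occupies the bromodomain of the acetyltransferases p300 and CBP, coactivators at enhancers and promoters. The 6 groups were CCS1477-treated and DMSO-treated H460 (large cell carcinoma), H2023 (labelled squamous cell carcinoma) and ABC-1 (adenocarcinoma), with 3 libraries each and 18 in all. The series calls H460 and H2023 NRF2-activated and ABC-1 wildtype, and its own text gives the dose in mM where the sample descriptions give µM. Whether replicates were separate cultures is not said in the labels, so the p-values reflect the scatter among these libraries alone, which may be technical.

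Libraries held 14483979 to 33568180 reads, and CCS1477 replicate 1 of H460 stood apart from its replicates. Mitochondrial genes took 0.795% of its reads, and no other library of that line was below 1.77%. The squared difference of this library from the 2 others of its group came to 33.0 and 36.3 times what counting noise gives, where all other pairs of replicates gave 2.25 to 7.10 times. In H2023, 5 of 6 squamous markers (KRT5, KRT6A, KRT14, DSG3 and SOX2) had no reads in a gene row, and TP63 stood at 0.420 CPM with CCS1477, against 1.84 CPM with DMSO, so its markers go against the squamous label. In ABC-1 and in H460, 3 of 6 adenocarcinoma markers (NAPSA, SFTPB and SFTPC) had no reads in a gene row. The rest of that list in ABC-1 was MUC1, KRT7 and NKX2-1. They averaged 33.1, 0.696 and 0.624 CPM with CCS1477, against 98.4, 1.89 and 1.34 CPM with DMSO. In H460 the epithelial cadherin CDH1 had no reads in a gene row. EPCAM, a further epithelial marker, averaged 0.443 CPM with CCS1477 and 0.659 CPM with DMSO in H460. KRT8, a keratin of simple epithelium, was at 1202 CPM or more on average in every group. The blood and endothelial markers PTPRC, CD3E and PECAM1 had no reads in ABC-1 gene rows. CD68, a further blood marker, averaged 1.89 CPM there with CCS1477 and 1.71 CPM with DMSO. It averaged 14.5 to 26.6 CPM in the groups of H460 and H2023. PTPRC averaged 1.58 CPM with CCS1477 and 1.04 CPM with DMSO in H2023. Of the 7 markers of other cells, 2 were over 1 CPM in ABC-1 (CD68 and COL1A1). The list summed to 24.1 to 25.4 CPM in ABC-1 with CCS1477, against 7.94 to 9.94 CPM with DMSO. The squamous list of ABC-1, with 4 of 6 markers at 0, summed to 65.3 to 69.2 CPM with CCS1477, against 147 to 155 CPM with DMSO. Nearly all of that sum was SOX2, at 66.7 CPM on average with CCS1477 and 149 CPM with DMSO. The adenocarcinoma list of H2023, with 3 of 6 at 0, summed to 594 to 640.5 CPM with CCS1477, against 1545 to 1605 CPM with DMSO. KRT7 made up nearly all of it, at 608 CPM on average with CCS1477 and 1573 CPM with DMSO. The H460 libraries with DMSO were uneven in these lists. Their adenocarcinoma list summed to 3.54 to 22.2 CPM, against 1.67 to 2.83 CPM with CCS1477, and KRT7 averaged 7.51 ± 10.6 CPM with DMSO. The squamous list of H460 summed to 1.94 to 8.03 CPM with DMSO, against 1.44 to 2.89 CPM with CCS1477. The part of these differences in the results of each line was not tested.

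RefSeq gave promoter windows, here the 250 bases before a start on GRCh38.p14, for 6 of the 10 genes (11 windows). No window held any of the E2F words TTTCCCGC, TTTCGCGC, TTTGCCGC and TTTGGCGC on either strand, which 2.79% of all 35116 windows hold. The E-box CACGTG, a palindrome that MYC and its partner MAX recognise, lay 3 times in the CDK4 window and once in 2 of the 3 CDKN2C windows. It is found in 6.34% of all windows, and 3 or more copies in 0.0797%. The CDK6 window at its outer start held 3 copies of the GC box GGGCGG, counted on both strands, and 13.9% of all windows hold 3 or more. Windows of CCNE1 (7 copies), CCND3 and CDKN2C (up to 5 each) and CDK4 (3) held as many or more. These sequences are shown because CDK4 and CDKN2C fell together in H2023 and ABC-1 and CDK6 moved in opposite directions between lines. CDKN1B also fell in H2023 and ABC-1, and its window holds 0 E-boxes. CCND3 and CDK6 fell in H2023, and their windows hold 0 E-boxes as well. CCND1 and CCNE2, which also fell in at least 1 line, have no window. A second CDK6 window holds 0 GC boxes. Capitals mark the E-boxes, or the GC boxes on either strand, and all run 5′ to 3′ on the gene's strand. Which start these cells use is not given, 211 of the 250 bases of the CDK4 window and all 250 of the CDKN2C window at the inner start are annotated as exon of some transcript, and a match is no evidence of binding.

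CDK4 E-box 210 bases before the start (chr12:57752509-57752538, minus strand): atgtcaagcggtCACGTGtgatagcaacag
CDK4 E-box 95 bases before the start (chr12:57752394-57752423, minus strand): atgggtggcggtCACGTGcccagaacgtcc
CDKN2C E-box 214 bases before the outer start (chr1:50960513-50960542, plus strand): gattgtgcacctCACGTGgttagtcacaca
CDKN2C E-box 63 bases before an inner start (chr1:50970164-50970193, plus strand): ttgctgaataatCACGTGtgaatcgagggg
CDK6 window outside exons (chr7:92836595-92836823, minus strand): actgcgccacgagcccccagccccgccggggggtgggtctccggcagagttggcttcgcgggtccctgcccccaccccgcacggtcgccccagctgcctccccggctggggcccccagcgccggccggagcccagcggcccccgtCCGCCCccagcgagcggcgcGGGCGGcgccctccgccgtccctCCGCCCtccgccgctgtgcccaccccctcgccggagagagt

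CCS1477 lowered CCND1 and CDK4 in all 3 lines. CDK6 fell in H460 and H2023 and rose in ABC-1, CCND3 fell in H2023, and CDKN1B rose in H460 and fell in the other two lines. CDKN2C fell to 9.36 CPM in treated ABC-1, against 28.3 CPM with DMSO, and also fell in H2023. Genes with at least 1 CPM (reads scaled to a common library total) in at least 3 of a line's 6 libraries were tested, which kept 8 of the 10. The gene rows of CCND2 and CDKN1C were absent or too low to test in every line. Levels are CPM of recovered reads (mean ± SD, n = 3 in each group). Changes are given as log2 of CCS1477 over DMSO ± SE on the deposited scale, called at an adjusted p under 0.05 by limma. In bulk RNA, fewer cells in a state and less RNA per cell cannot be told apart.

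The counts of called genes are read against those of the whole tables, where most genes passed. In H460, 5 of the 8 tested genes passed (62.5%), 2 higher and 3 lower, where 56.1% of 13516 genes passed, 28.2% higher and 27.9% lower. In H2023, 6 of 8 passed (75.0%), all lower, against 60.6% of 14572 genes, 28.6% higher and 31.9% lower. In ABC-1, 7 of 8 passed (87.5%), 2 higher and 5 lower, against 66.1% of 13543 genes, 33.5% higher and 32.6% lower. The median log2 change of the 8 genes in H460, H2023 and ABC-1 was -0.04, -0.42 and -0.30, beside 0.00, -0.01 and 0.01 over all tested genes.

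**Figure D1:**
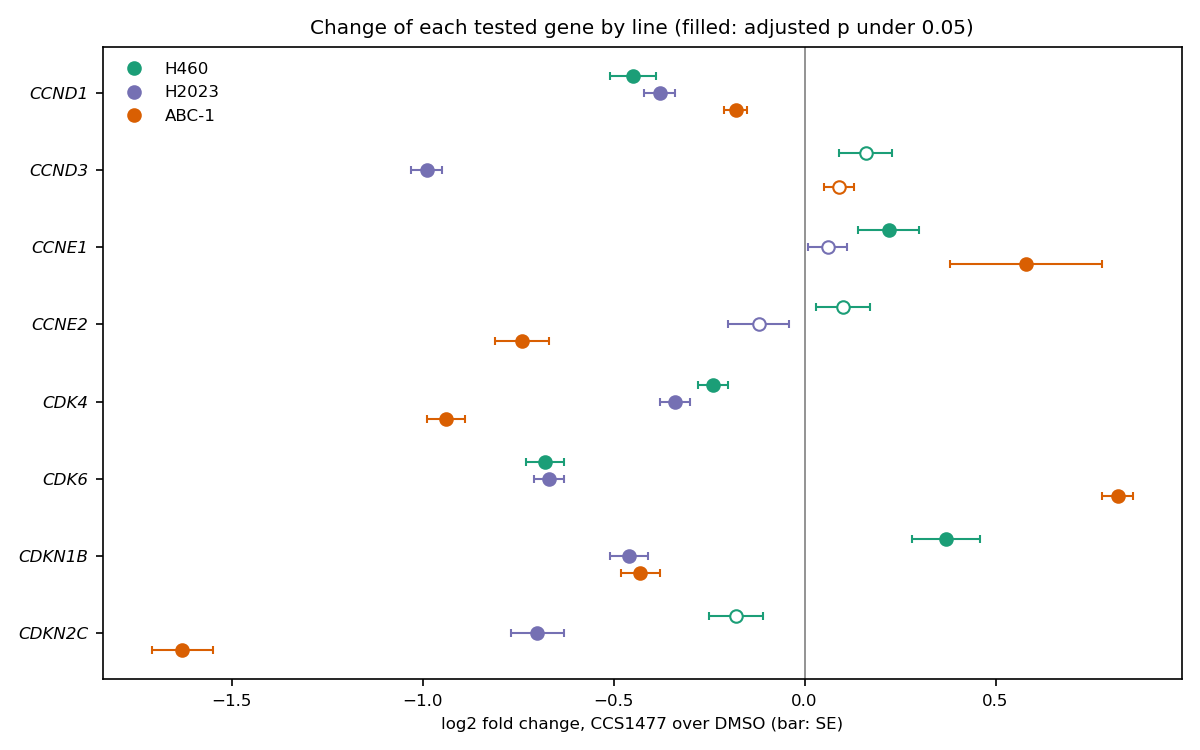
Log2 fold change of CCS1477 over DMSO (x axis) for the 8 tested genes (y axis) in H460, H2023 and ABC-1, with SE bars and filled points for an adjusted p under 0.05. CDK6 lies at -0.68 and -0.67 in H460 and H2023 and at 0.82 in ABC-1, and CDKN2C in ABC-1 is the lowest point at -1.63.

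CCND1 (ENSG00000110092, chromosome 11, 69641087 to 69654474 on GRCh38, plus strand), which encodes cyclin D1, fell in each line. In H460 it had 124, 131 and 125 CPM with CCS1477, against 180.0, 157 and 158 CPM with DMSO. Its log2 change there was -0.45 ± 0.06 (adjusted p = 0.000292). In H2023 it had 175, 175 and 163 CPM with CCS1477 and 206, 221 and 218 CPM with DMSO (-0.38 ± 0.04, adjusted p = 2.05e-05). ABC-1 held the highest level of this gene and the smallest change, 344 ± 6.37 CPM with CCS1477 and 373 ± 4.02 CPM with DMSO (-0.18 ± 0.03, adjusted p = 0.000751). The groups did not overlap in any line. Exons of CCND1 span a locus shared on the opposite strand with LTO1, and whether reads were counted by strand is not given in the sources used here.

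CCND3 (ENSG00000112576, chromosome 6, 41934933 to 42050357, minus strand), which encodes cyclin D3, fell in H2023. It had 147, 152 and 148 CPM there with CCS1477, against 277, 292 and 286 CPM with DMSO. This was the lowest log2 change of the 8 genes in that line, -0.99 ± 0.04 (adjusted p = 5.49e-09). H460 had 85.0, 75.0 and 69.8 CPM with CCS1477 and 65.6, 65.3 and 63.4 CPM with DMSO, groups that did not overlap although the change missed the threshold (0.16 ± 0.07, adjusted p = 0.0702). ABC-1 averaged 117 ± 0.176 CPM with CCS1477 and 106 ± 2.38 CPM with DMSO (0.09 ± 0.04, adjusted p = 0.0640). When libraries were scaled by their totals, CCND3 was called higher in H460 (0.24, adjusted p = 0.0194). ABC-1 then passed as well (0.15, adjusted p = 0.00171).

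CCND2 (ENSG00000118971, chromosome 12, 4273772 to 4305350, plus strand), which encodes cyclin D2, had a gene row in ABC-1 alone, where that row was too low to test. The tables also hold transcript rows, and what these count beside the gene rows is not stated. CCND2 had reads in both kinds of row in ABC-1. Its ABC-1 gene row held 95 reads, all in CCS1477 replicate 2 (5.63 CPM), with 0 reads in the other 5 libraries, while its transcript row held 226 reads. With both rows added, ABC-1 had 4.29, 5.63 and 4.64 CPM with CCS1477, against 1.59, 1.72 and 1.73 CPM with DMSO. On these added rows, the log2 change was 1.34 ± 0.16 (adjusted p = 1.18e-05), where 34.3% of genes were called higher. This value holds only if the rows may be added. The gene row alone, with no filter on low values, gave 1.49 ± 1.04 (adjusted p = 0.258). In H460 CCND2 had a transcript row only, with 109 reads over 6 libraries and 0.387, 0.393 and 0.497 CPM with CCS1477, against 1.73, 0.365 and 0.425 CPM with DMSO. The table of H2023 has no CCND2 row in the data used here. AC008012.1 overlaps CCND2 on the same strand.

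Per kilobase of exon, CCND1 made up most of the D cyclin RNA of ABC-1 and H460, and in H2023 CCND1 held the larger share with CCS1477 and CCND3 with DMSO. In H2023 CCND1 took 58.0 ± 0.93% of the summed D cyclin level with CCS1477, against 47.6 ± 0.29% with DMSO, and CCND3 held the rest. The summed level in H2023 was 61.1 ± 1.61 CPM per kilobase with CCS1477, against 93.7 ± 2.95 with DMSO. The share of CCND1 moved the other way in H460, 66.6 ± 2.60% with CCS1477 against 75.3 ± 1.20% with DMSO. In ABC-1 it was 77.7 ± 0.18% with CCS1477 and 80.9 ± 0.44% with DMSO. The sum was 39.4 ± 1.29 CPM per kilobase with CCS1477 and 45.3 ± 2.80 with DMSO in H460, and 91.6 ± 1.74 with CCS1477 and 95.3 ± 0.768 with DMSO in ABC-1. These shares and sums are descriptions, with no test. They use the length of all annotated exons of a gene together, 4.83 kb for CCND1 and 5.8 kb for CCND3. Which transcripts the cells made was not measured, and another length could change which gene leads in H2023.

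CDK4 (ENSG00000135446, chromosome 12, 57747727 to 57756013, minus strand), the kinase whose window holds 3 E-boxes above, fell in all 3 lines. In ABC-1 it had 106, 109 and 109 CPM with CCS1477, against 197, 210.1 and 193 CPM with DMSO (-0.94 ± 0.05, adjusted p = 1.16e-08). It averaged 104 ± 3.54 CPM with CCS1477 and 127 ± 1.04 CPM with DMSO in H2023 (-0.34 ± 0.04, adjusted p = 2.62e-05). In H460 the means were 158 ± 4.15 CPM with CCS1477 and 178 ± 3.15 CPM with DMSO (-0.24 ± 0.04, adjusted p = 0.00102). The DMSO levels of CDK4 were apart in all 3 lines, highest in ABC-1, while the treated levels of ABC-1 and H2023 overlapped. TSPAN31 and MARCH9 lie opposite CDK4 at this locus.

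CDK6 (ENSG00000105810, chromosome 7, 92604921 to 92836594, minus strand), the other kinase partner of D cyclins, rose in ABC-1 and fell in H460 and H2023. In ABC-1 it had 285, 299.6 and 289 CPM with CCS1477, against 151, 164 and 160.0 CPM with DMSO (0.82 ± 0.04, adjusted p = 2.47e-08). In H460 it averaged 106 ± 5.85 CPM with CCS1477 and 163 ± 7.0 CPM with DMSO (-0.68 ± 0.05, adjusted p = 2.72e-05). In H2023 it had 164, 168 and 157 CPM with CCS1477, against 251, 264 and 239.8 CPM with DMSO (-0.67 ± 0.04, adjusted p = 3.75e-07). The groups stood clear of each other in every line. DMSO-treated H460 and ABC-1 overlapped in their CDK6 level.

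Taken per kilobase, the share of CDK6 was higher with CCS1477 in ABC-1. CDK6 took 41.1 ± 0.43% of the summed CDK4 and CDK6 level there with CCS1477, against 17.0 ± 0.57% with DMSO. Its share was 14.8 ± 0.38% with CCS1477 and 19.1 ± 0.40% with DMSO in H460, and 28.8 ± 0.65% with CCS1477 and 33.8 ± 0.91% with DMSO in H2023. The sum of both kinases per kilobase was nonetheless lower with CCS1477 in ABC-1, at 57.9 ± 1.07 CPM per kilobase against 76.0 ± 3.22 with DMSO. That direction rests on the lengths used, 12.3 kb of annotated exon for CDK6 and 3.17 kb for CDK4. In plain CPM, CDK6 was at 291 with CCS1477 and 158 with DMSO, and CDK4 at 108 and 199.9. The sum in plain CPM was thus higher with CCS1477 in ABC-1. The sum per kilobase was 58.6 ± 1.78 with CCS1477 and 69.3 ± 1.56 with DMSO in H460, and 46.3 ± 1.45 with CCS1477 and 60.7 ± 1.28 with DMSO in H2023.

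**Figure D2:**
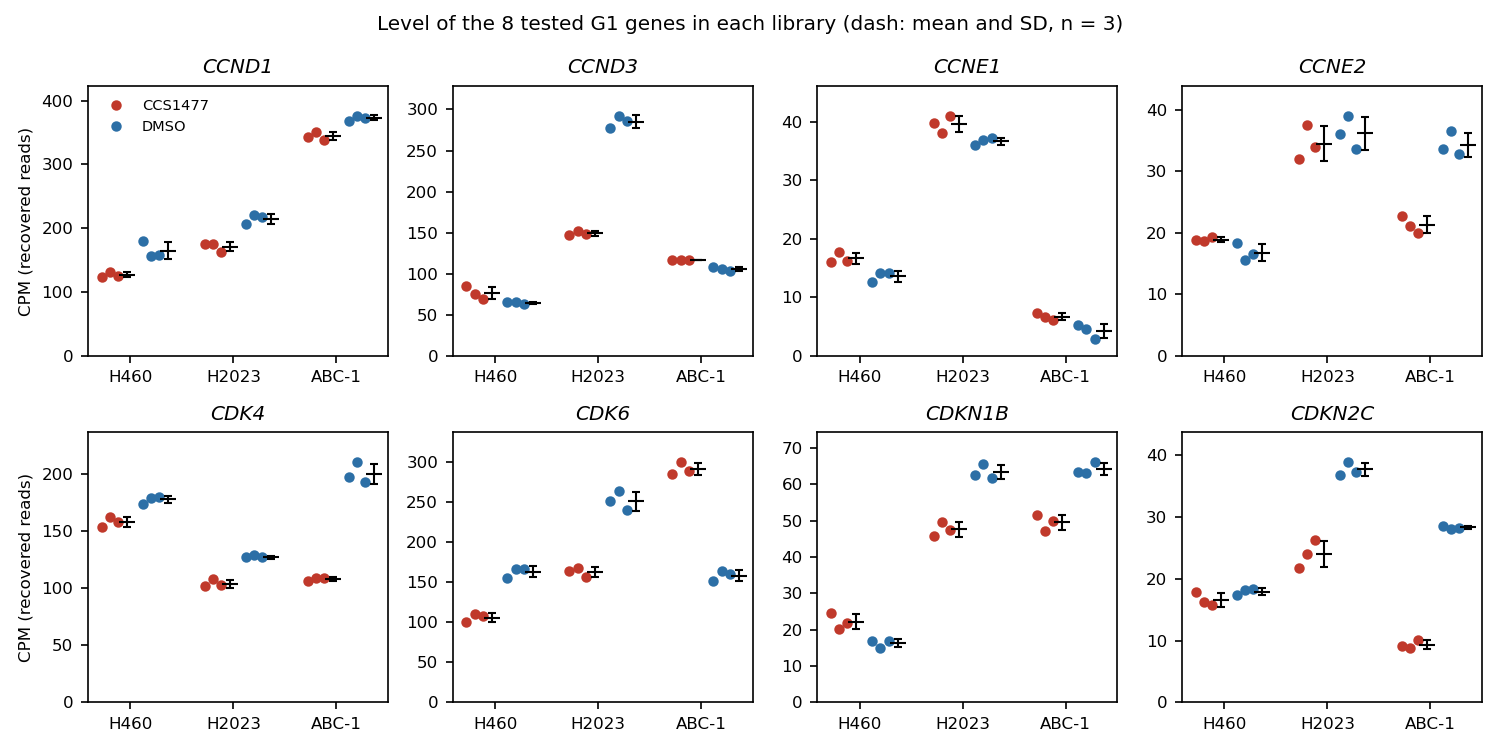
CPM of recovered reads (y axis) of the 8 tested genes in each library of H460, H2023 and ABC-1, CCS1477 in red and DMSO in blue, with a dash and bar for the mean and SD of 3 libraries. CDK6 in ABC-1 lies at 285 to 299.6 CPM with CCS1477, above its DMSO libraries at 151 to 164, while in H460 and H2023 the red points lie below the blue.

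**Figure D3:**
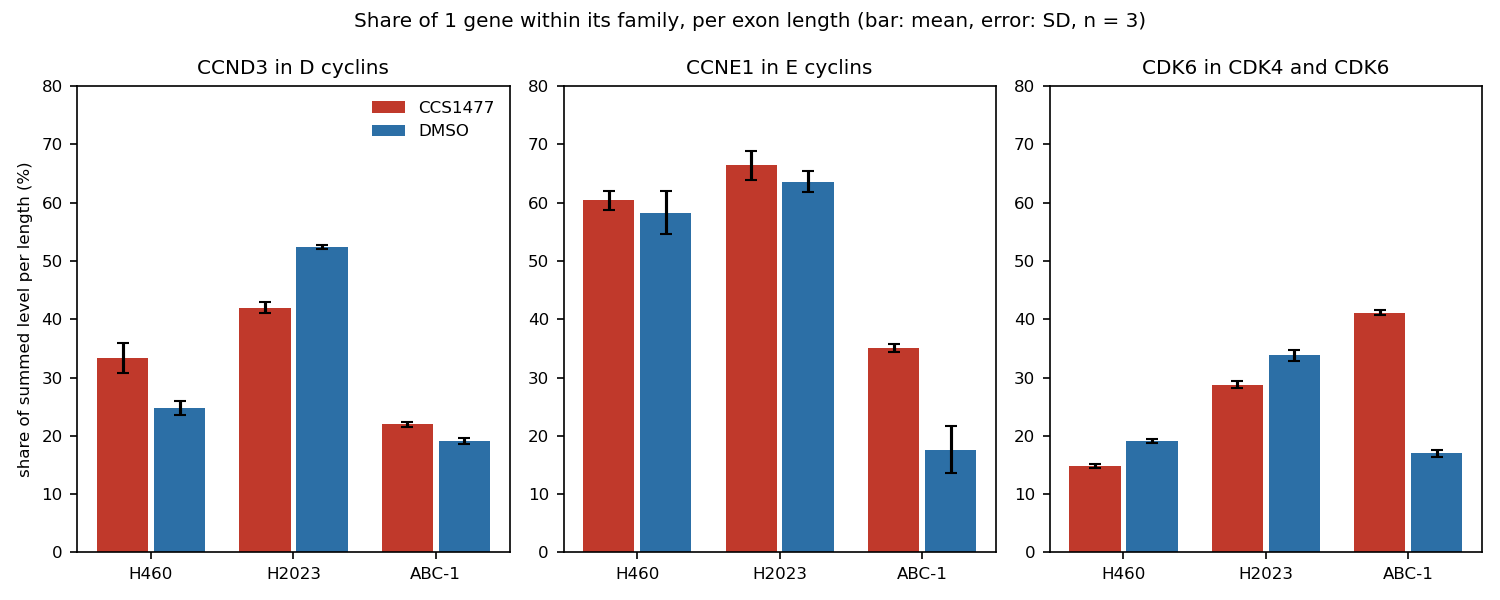
Share (%) of CCND3 in the D cyclins, CCNE1 in the E cyclins and CDK6 in CDK4 and CDK6, of the summed CPM per kilobase of exon, for CCS1477 (red) and DMSO (blue), as mean and SD of 3 libraries. In ABC-1 the CDK6 share is 41.1% with CCS1477 against 17.0% with DMSO, and the CCNE1 share 35.1% against 17.6%.

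CCNE1 (ENSG00000105173, chromosome 19, 29811898 to 29824308, plus strand), which encodes cyclin E1, rose in ABC-1 and, narrowly, in H460. In ABC-1 it had 7.26, 6.69 and 6.08 CPM with CCS1477, against 5.35, 4.60 and 2.97 CPM with DMSO (0.58 ± 0.20, adjusted p = 0.0212). The call ended without CCS1477 replicate 1 (adjusted p = 0.0686) and without DMSO replicate 3, the lowest library (0.34, adjusted p = 0.0575). In H460 it had 16.1, 17.8 and 16.3 CPM with CCS1477, against 12.6, 14.2 and 14.1 CPM with DMSO (0.22 ± 0.08, adjusted p = 0.0380), and that call ended without any 1 library except CCS1477 replicate 1 (adjusted p = 0.0507 to 0.127). The H460 call also ended in 1 fit over 18 libraries (0.22, adjusted p = 0.187). H2023 held the highest level, 39.6 ± 1.42 CPM with CCS1477 and 36.7 ± 0.606 CPM with DMSO, with a log2 change of 0.06 ± 0.05 (adjusted p = 0.349).

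CCNE2 (ENSG00000175305, chromosome 8, 94879770 to 94896678, minus strand), which encodes cyclin E2, fell in ABC-1. It averaged 21.3 ± 1.37 CPM there with CCS1477 and 34.3 ± 1.94 CPM with DMSO, and the groups did not overlap (-0.74 ± 0.07, adjusted p = 5.15e-06). In H2023 its groups overlapped (-0.12 ± 0.08, adjusted p = 0.200), and in H460 the log2 change was 0.10 ± 0.07 (adjusted p = 0.273). INTS8 and NDUFAF6 overlap CCNE2 on the opposite strand. Per kilobase, CCNE1 made up 35.1 ± 0.64% of the E cyclin level of ABC-1 with CCS1477, against 17.6 ± 4.0% with DMSO. The E cyclin sum in ABC-1 was 7.46 ± 0.543 CPM per kilobase with CCS1477 and 9.49 ± 0.769 with DMSO. It was 10.9 ± 0.316 with CCS1477 and 9.16 ± 0.0922 with DMSO in H460, and 23.4 ± 0.463 with CCS1477 and 22.6 ± 0.612 with DMSO in H2023.

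CDKN2C (ENSG00000123080, chromosome 1, 50960745 to 50974633, plus strand), the INK4 inhibitor of CDK4 and CDK6, had the lowest log2 change of all 24 tested. In ABC-1 it had 9.09, 8.82 and 10.1 CPM with CCS1477, against 28.6, 28.1 and 28.2 CPM with DMSO (-1.63 ± 0.08, adjusted p = 1.28e-08). In H2023 it had 21.8, 24.0 and 26.2 CPM with CCS1477, against 36.8, 38.8 and 37.3 CPM with DMSO (-0.70 ± 0.07, adjusted p = 1.13e-05). In H460 the groups overlapped, at 16.6 ± 1.11 CPM with CCS1477 and 17.9 ± 0.536 CPM with DMSO (-0.18 ± 0.07, adjusted p = 0.0539). Without CCS1477 replicate 1, the library that stood apart, CDKN2C passed in H460 (-0.23, adjusted p = 0.0147). With all libraries it passed when scaled by relative log expression (adjusted p = 0.0381) or by a trimmed mean of M values (adjusted p = 0.0438). The same held with transcript rows added (adjusted p = 0.0486) and in 1 fit over 18 libraries (adjusted p = 0.046). In these settings the change was -0.19 to -0.18. With voom and with scaling by library totals the change was -0.11 (adjusted p = 0.228 and 0.214).

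CDKN1B (ENSG00000111276, chromosome 12, 12715058 to 12722371, plus strand), which encodes p27, rose in H460 and fell elsewhere. In H460 it had 24.5, 20.3 and 21.9 CPM with CCS1477, against 17.0, 14.9 and 16.8 CPM with DMSO (0.37 ± 0.09, adjusted p = 0.00677). It averaged 47.6 ± 1.96 CPM with CCS1477 and 63.3 ± 1.97 CPM with DMSO in H2023 (-0.46 ± 0.05, adjusted p = 1.78e-05). In ABC-1 the means were 49.5 ± 2.16 CPM with CCS1477 and 64.2 ± 1.60 CPM with DMSO (-0.43 ± 0.05, adjusted p = 1.39e-05). H2023 and ABC-1 overlapped in their CDKN1B level under each treatment, and both H460 groups stood below them. AC008115.3 overlaps CDKN1B on the same strand, and how reads of such overlaps were counted is not given in the sources used here. Per kilobase, the sum of CDKN1B and CDKN2C was 20.4 ± 0.857 CPM with CCS1477 and 31.4 ± 0.563 with DMSO in ABC-1, and 24.2 ± 1.15 with CCS1477 and 33.9 ± 0.995 with DMSO in H2023. In H460 it was 12.9 ± 1.04 with CCS1477 and 11.2 ± 0.393 with DMSO.

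CDKN1C (ENSG00000129757, chromosome 11, 2883213 to 2885773, minus strand), which encodes p57, had 41 reads in all of H2023 and 41 in all of ABC-1. Its level was 0.391 to 0.546 CPM with CCS1477 and 0.224 to 0.455 CPM with DMSO in H2023. In ABC-1 it was 0.439 to 0.572 CPM with CCS1477 and 0.0637 to 0.575 CPM with DMSO, where 3 reads amount to 0.172 to 0.207 CPM. A difference was not detectable at this depth: with no filter on low values the adjusted p was 0.483 for H2023 and 0.424 for ABC-1. H460 has no CDKN1C row in the data used here.

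Without CCS1477 replicate 1, the other H460 changes were -0.43 for CCND1, -0.64 for CDK6, -0.22 for CDK4, 0.30 for CDKN1B and 0.25 for CCNE1, all still past the threshold (adjusted p = 8.53e-06 to 0.0301). CCND3 stood at 0.09 and CCNE2 at 0.11 in H460 without that library (adjusted p = 0.114 and 0.288).

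The differences between lines were tested on their own, as the change in one line minus that in another, over the 3 pairs of lines. The pairs share libraries, so they are not independent of each other. H460 and H2023, both described as NRF2-activated, differed in 3 of the 8 genes, where 27.9% of all genes differed. The difference, H460 minus H2023, was 1.15 ± 0.08 for CCND3 (adjusted p = 4.89e-07), 0.83 ± 0.10 for CDKN1B (adjusted p = 5.97e-05) and 0.52 ± 0.10 for CDKN2C (adjusted p = 0.00228). For CDK6 the difference was -0.01 ± 0.07 (adjusted p = 0.932).

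H460 and ABC-1 differed in 6 of 8 genes, against 45.3% of all genes. H460 minus ABC-1, the lowest difference was that of CDK6, -1.50 ± 0.07 (adjusted p = 6.79e-09), and the highest that of CDKN2C, 1.45 ± 0.10 (adjusted p = 1.42e-07). CCNE2 (0.84 ± 0.11), CDKN1B (0.81 ± 0.10), CDK4 (0.70 ± 0.06) and CCND1 (-0.28 ± 0.07) differed too. H2023 and ABC-1 also differed in 6 of 8, against 42.2% of all genes. H2023 minus ABC-1, the values were -1.49 ± 0.07 for CDK6 (adjusted p = 5.07e-10), -1.07 ± 0.05 for CCND3 (adjusted p = 7.79e-10), 0.93 ± 0.11 for CDKN2C, 0.62 ± 0.11 for CCNE2, 0.60 ± 0.06 for CDK4 and -0.21 ± 0.05 for CCND1. CDKN1B did not pass between H2023 and ABC-1 (-0.03 ± 0.07, adjusted p = 0.799), nor did CCNE1 (-0.52 ± 0.21, adjusted p = 0.0646).

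A list of 29 other G1 genes was read from the same fits. In H460, 7 of 27 tested rose and 14 fell (median log2 change -0.19), where 28.2% of all genes were higher and 27.9% lower. In H2023, 10 of 28 rose and 12 fell (median -0.01), beside 28.6% and 31.9% of all genes. In ABC-1, 8 of 29 rose and 14 fell (median -0.20), beside 33.5% and 32.6%. CDKN1A, which encodes the CDK inhibitor p21, rose in each line. It averaged 104 ± 1.74 CPM with CCS1477 and 19.8 ± 2.04 CPM with DMSO in ABC-1 (2.32 ± 0.06, adjusted p = 1.72e-10). Its log2 changes were 1.28 ± 0.04 in H2023 (adjusted p = 1.84e-09) and 0.85 ± 0.07 in H460 (adjusted p = 3.99e-05). SERTAD1, which encodes a CDK4-binding protein, rose as well, with log2 changes of 1.20, 1.27 and 1.89 for H460, H2023 and ABC-1.

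CDK2, the kinase of E cyclins, had log2 changes of -1.54 ± 0.05 in ABC-1, -0.67 ± 0.05 in H2023 and -0.19 ± 0.05 in H460. E2F2, a factor of the E2F family, averaged 12.9 ± 1.12 CPM with CCS1477 and 80.6 ± 2.42 CPM with DMSO in ABC-1 (-2.68 ± 0.07, adjusted p = 1.43e-10), and its log2 changes were -1.72 in H2023 and -1.51 in H460. CCNA2, the cyclin A of S phase, had a log2 change of -1.99 ± 0.05 in ABC-1, -0.82 in H2023 and -0.37 in H460. CKS1B, a CDK subunit that helps degrade p27, stood at -1.62, -0.60 and -0.38 in ABC-1, H2023 and H460, all past the threshold.

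The members of the retinoblastoma family differed in direction. RB1 rose in H460 (0.21 ± 0.04, adjusted p = 0.00421) and in H2023 (0.16 ± 0.05, adjusted p = 0.0149), and its change in ABC-1 was 0.08 ± 0.04 (adjusted p = 0.109). RBL1 (p107) fell in each line, with log2 changes of -0.36, -0.66 and -0.82 in H460, H2023 and ABC-1. RBL2 (p130) rose in H2023 (0.13, adjusted p = 0.0352) and did not pass in H460 (0.03) or ABC-1 (-0.06). Among INK4 inhibitors, CDKN2B rose in H2023 (0.63 ± 0.11) and ABC-1 (0.37 ± 0.09), while CDKN2A, tested in ABC-1 alone, fell there (-0.86 ± 0.06, adjusted p = 2.81e-07). CDKN2D, a further INK4 inhibitor named after its values were seen, rose in H460 (1.20 ± 0.17, adjusted p = 0.000595). It was higher in H2023 too (0.55 ± 0.15, adjusted p = 0.00959), while ABC-1 gave 0.25 ± 0.16 (adjusted p = 0.176).

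**Figure D4:**
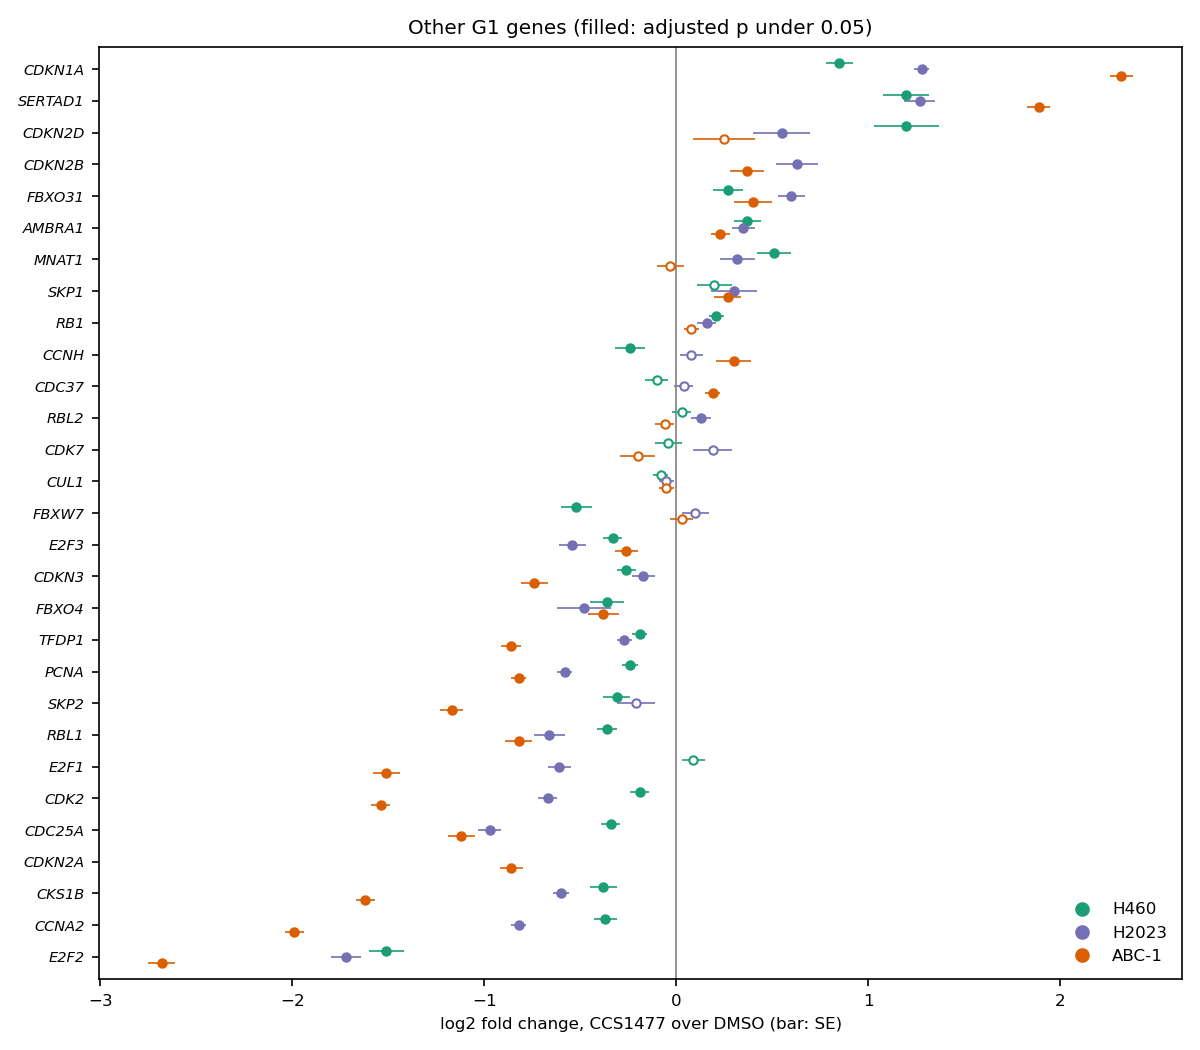
Log2 fold change of CCS1477 over DMSO (x axis) with SE for the other G1 genes (y axis, ordered by mean change), by line, filled where the adjusted p is under 0.05. CDKN1A and SERTAD1 lie at the top, and E2F2 at the bottom at -2.68 in ABC-1.

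Genes with the most similar pattern were sought for the 3 of the 8 with the largest mean absolute change, by Pearson's r over the 18 libraries on log2 values centred on the DMSO mean of each line, among 10680 genes. The points share their lines and treatments, so r is a description. CDKN2C was most like CDCA8 and BIRC5 (r = 0.990 each), genes of the chromosomal passenger complex. CDK6 was most like PALLD, which encodes an actin-associated protein (r = 0.991), and DUSP4, a MAP kinase phosphatase (r = 0.989). DUSP4 had log2 changes of -0.92 and -0.78 in H460 and H2023, and of 0.87 in ABC-1. CDK4 was most like PRR11 (r = 0.998) and TFRC, the transferrin receptor (r = 0.995).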

How the data were processed

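The authors deposited log2 values, 1 table per line, on GRCh38 per the submitters' processing notes; aligner, counting program and strand use: not given in the sources used here. The values are log2 of reads divided by a scaling factor plus 4. Undoing this returned whole reads (to within 0.1) for every value checked, those of up to 1000 reads, and CPM and totals come from those reads. A count at 1 CPM carried a counting error of 17.3 to 26.3%. Directional libraries were made from total RNA, per the labels' protocols.

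Gene rows were fitted per line with limma-trend (limma 3.58.1, R 4.3.3) on the deposited values, two-sided, with Benjamini-Hochberg adjustment over all genes tested and a threshold of 0.05; differences between lines were fitted as an interaction over 12 libraries. The plan allowed for deposited counts, and log2 values were found. Transcript rows (9.19 to 10.7% of reads) were left out unless stated. Exon length is the union of exons in GENCODE 29, which may differ from the length of the transcripts made, so shares and sums per kilobase depend on it. Windows came from RefSeq.

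The genes and lists were chosen with earlier results of these data known. All 10 genes are named; other G1 genes are named if among the 4 smallest p of a line, or if of the RB family, CDK2, CDKN1A, CDKN2A or CDKN2B; the 2 genes most alike are named for 3 genes. Alternatives were other scalings, voom, filters, constants of 0.1 and 1, transcript rows, 1 fit over 18 libraries, a replicate block, a threshold of 0.01 and each library left out.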

Additional observations from a re-analysis of the deposited data

Results flagged for a closer look

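The treatment effect differed between lines, by a test of the difference itself, in 15 of 24 cases. Of all genes, 27.9% differed between H460 and H2023, 45.3% between H460 and ABC-1 and 42.2% between H2023 and ABC-1. Between H460 and H2023 the difference of the log2 change was 1.15 for CCND3, 0.83 for CDKN1B and 0.52 for CDKN2C. Between H460 and ABC-1 it was -1.50 for CDK6, 1.45 for CDKN2C, 0.84 for CCNE2, 0.81 for CDKN1B, 0.70 for CDK4 and -0.28 for CCND1. Between H2023 and ABC-1 it was -1.49 for CDK6, -1.07 for CCND3, 0.93 for CDKN2C, 0.62 for CCNE2, 0.60 for CDK4 and -0.21 for CCND1. A signal outside the gene rows came from CCND2, whose gene and transcript rows together averaged 4.85 CPM with CCS1477 and 1.68 CPM with DMSO in ABC-1.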

How the results depend on the processing

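Of the 24 changes of the tested genes, 19 kept their direction and their side of the threshold under every alternative run, and of the 24 differences between lines 21 did. The changes that crossed it were those of CCND3 in H460 and ABC-1, CCNE1 in H460 and ABC-1, and CDKN2C in H460. Signs turned only for 2 differences near 0. The CDK6 difference between H460 and H2023 was 0.01 with voom and with scaling by library totals, and -0.05 to 0.03 when libraries were left out in turn. The CDKN1B difference between H2023 and ABC-1 was 0.00 when scaled by a trimmed mean of M values, and -0.07 to 0.01 when libraries were left out. The CCNE1 difference between H2023 and ABC-1 passed in some settings, among them the replicate block (-0.52, adjusted p = 0.0227). Same-numbered libraries correlated at -0.104 to 0.097, not over the planned cut of 0.1, so they were not treated as paired. This cut cannot show that weak pairing is absent. In H2023 same-numbered libraries gave 0.034 to 0.044 and the others -0.033 to -0.006. In ABC-1 the same-numbered ones gave -0.104 to -0.043. With the replicate block 5, 6 and 7 of the 8 genes passed in H460, H2023 and ABC-1, as without it. With scaling by library totals, 60.2% of all calls in H460 were higher, in place of 50.3%, and the CCND1 change in ABC-1 shrank to -0.12. The cause was not tested. Depth limits CDKN1C, and CCNE1 in ABC-1 rests on 43 to 127 reads a library.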
